A study of Mus musculus with 2 samples.

Results

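The proton pump of the lysosome and the proteins of the organelle it acidifies were described through 32 mouse genes chosen by symbol: 7 encode subunits of the membrane-embedded V0 part of the vacuolar ATPase, 8 subunits of its cytosolic V1 part, 2 accessory proteins of the pump, 6 lysosomal membrane proteins, 4 glycosidases, 3 other luminal proteins and 2 transcription factors of the lysosome. The deposited matrices list 48709 genes, of which 25239 had at least 1 unique molecular identifier (UMI, a tag that marks 1 captured transcript) in the cells kept, and 31 of the 32 members were among them. Atp6v0c, the gene of the V0 c subunit, was listed at 0 UMIs in both libraries. The rows were taken by symbol and not by a cutoff on a measured value, but the list was drawn up with earlier results of these data known. CD11b-selected cells of the cochlea, the hearing organ of the inner ear, were profiled by droplet-based 3′ single-cell RNA sequencing in 1 library of electrode-implanted and 1 library of non-implanted cochleae. Per the labels, the mice of both groups were C57BL/6J/B6 animals of both sexes, pooled, with the genotype CX3CR1+/GFP Thy1+/YFP. Both groups thus carried a GFP reporter allele at Cx3cr1, a chemokine receptor gene of monocytes and macrophages, and a YFP reporter under Thy1 sequences, which are known to drive expression mainly in neurons. Tissue was taken 33 days after implantation, per the series design text, which also speaks of the opposite ear being collected. The sample labels do not say whether the non-implanted cochleae were those ears, whether the electrode released dexamethasone (a glucocorticoid that the series title names), or how many animals were pooled. Their extraction protocol describes another inner ear tissue and other ages than the design text, which was followed here, so no animal age is given.

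After filtering, 3065 implanted and 3411 non-implanted cells remained, with medians of 4239 and 4145 UMIs per cell and 18469428 and 20433645 UMIs in all. The libraries shared 6 deposited cell barcodes, 5 of them kept. Itgam, the gene of CD11b, was listed at 0 UMIs, so it could not serve to check the CD11b selection. Cells were grouped into 19 clusters without using the members or a wider list of lysosomal genes, and 3 clusters stayed unnamed. Macrophage-like cells numbered 281 and 240 (implanted and non-implanted) and carried all 13 macrophage markers in both libraries. They comprised a cluster high in MHC class II and C1q genes (124 and 164 cells), a cluster of shallow C1q-positive cells (95 and 74 cells, medians of 905 and 1076 UMIs) and a cluster marked by Spp1, Gpnmb and Mmp12 (62 and 2 cells). Since 62 of the 64 cells of the last cluster came from 1 library, that cluster and that library cannot be told apart. The other classes used here were monocyte-like (273 and 228), neutrophil-like (1165 and 1523), granulocyte precursor-like (812 and 1037), osteoclast-like (11 and 28), erythroid-like (77 and 41) and B cell-like cells (40 and 32). With 1 library per group there is no replicate check and no test, and the 95% intervals given below cover counting error only.

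The vacuolar ATPase is a rotary pump: the V1 part hydrolyses ATP in the cytosol, and the V0 part carries protons across the membrane into the lumen. The low pH it makes lets lysosomal hydrolases work, and macrophages use it to digest what they take up. Osteoclasts place the same pump in the plasma membrane that faces bone, where the acid dissolves mineral. TFEB and MITF, related transcription factors, bind an E-box-like motif found near the start of many lysosomal and pump genes.

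The start regions of the genes show that motif in part of the members, so a few are printed. RefSeq promoter windows (GRCm38.p6, 250 bases before to 50 bases after a gene's start) were found for 25 of the 32 members, in 34 windows of 300 bases, and all windows of the table numbered 32851. The core CACGTG was searched on both strands (it is its own reverse complement) and stood in windows of 7 members: Atp6v0b, Atp6v0d1, Atp6v0e, Atp6v1a, Lamp1, Gla and Mcoln1. It stood in 8.09% of all 27025 genes in the table and in 7.15% of all windows. The longer TCACGTGA, which contains that core, stood in 5 members (Atp6v0d1, Atp6v0e, Atp6v1a, Gla and Mcoln1) and in 1.12% of all genes. The related TCATGTG stood in 4 members on either strand (Atp6v0c, Gla, Scarb2 and Acp5) and in 4.31% of all genes. Lamp1, a major lysosomal membrane glycoprotein, had 4 copies of CACGTG in the last 80 bases before its start. The stretches below, each 5′ to 3′ on the gene's own strand with the motif in capitals (CACGTG, or for Acp5 the reverse complement of TCATGTG), show the Lamp1 cluster, the paired copies of the calcium channel gene Mcoln1 and of the V0 gene Atp6v0b, the single copy of the V1 gene Atp6v1a and the Acp5 match. Their positions are chr8:13159081-13159160 on the plus strand for Lamp1, chr8:3500419-3500481 on the plus strand for Mcoln1, chr4:117887334-117887409 on the minus strand for Atp6v0b, chr16:44139340-44139419 on the minus strand for Atp6v1a and chr9:22130652-22130718 on the minus strand for Acp5. Acp5 had 3 windows, and the stretch printed is from the one that held the match. It lies inside the gene's GENCODE M21 span (chr9:22126727-22135711, minus strand), so it is not next to the outer start of that span. The Atp6v1a stretch also lies inside the span of its gene, and the Mcoln1 stretch does in part. A match is a description of letters in a window and shows no binding.
Lamp1: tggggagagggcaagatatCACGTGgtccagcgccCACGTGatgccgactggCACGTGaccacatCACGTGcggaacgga
Mcoln1: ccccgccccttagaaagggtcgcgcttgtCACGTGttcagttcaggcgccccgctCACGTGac
Atp6v0b: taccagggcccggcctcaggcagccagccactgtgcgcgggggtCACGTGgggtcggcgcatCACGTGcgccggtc
Atp6v1a: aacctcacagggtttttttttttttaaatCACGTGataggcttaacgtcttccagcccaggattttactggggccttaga
Acp5: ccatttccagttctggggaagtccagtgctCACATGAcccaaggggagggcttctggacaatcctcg

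The first comparison asked how the members differed between implanted and non-implanted macrophage-like cells. Most were higher in the implanted library. Counts were summed per class and library, divided by the class total and scaled to 1000000 UMIs to give CPM, and a gene was called when the ratio of CPM + 5 reached 1.5-fold, among genes whose UMIs in the 2 arms summed to at least 20. Of 31 members assessed, 8 were called higher and 0 lower, where 8.35% of 9874 genes were called higher and 8.45% lower. The median log2 ratio of CPM + 5 was 0.42 over the members and -0.02 over all genes assessed. The exact interval of the CPM ratio lay above 1 for 22 members and below 1 for 2. Over all 9874 genes assessed it lay above 1 for 1257 and below 1 for 1355. The summed level of all members was 13292 CPM in the implanted and 9588 CPM in the non-implanted class. Other markers moved with the library too: the 11 neutrophil markers summed to 42787 and 58007 CPM within these macrophage-like cells and the 13 macrophage markers to 24622 and 19170 CPM, while 6 MHC class II subset genes summed to 19416 and 35801 CPM. The 13 granulocyte precursor markers summed to 10729 and 19154 CPM, the 11 osteoclast markers to 606 and 387 CPM and the 9 erythroid markers to 1851 and 205 CPM. In the shallow C1q-positive cluster the erythroid markers reached 17642 and 204 CPM and the neutrophil markers 139703 and 125452 CPM. The neutrophil markers summed to 32535 and 51087 CPM in the cluster high in MHC class II and to 236835 and 249899 CPM in neutrophil-like cells. The part of these markers in the ratios was not tested.

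Among the V0 genes, Atp6v0d2, the d subunit isoform known from osteoclasts and some macrophages (chr4:19876841-19922605, minus strand), differed most. Its level was 381.7 CPM (interval 354 to 411) in implanted and 27.1 CPM (19.3 to 37.1) in non-implanted macrophage-like cells, a CPM ratio of 14.1 (10.2 to 20.0). UMIs of it were seen in 42 of 281 implanted and 10 of 240 non-implanted cells, so few cells carried the difference, and 1 cell held 16.1% of the implanted UMIs. After each cell was thinned to 1000 UMIs the shares were 6.64% and 1.95%, with 55 and 35 shallower cells left out. In neutrophil-like cells, taken as the background, 0.773% and 0.525% of cells had a UMI before thinning, at median depths of 2645 and 2700 UMIs against 4918 and 5232 in the macrophage-like cells. The widely expressed isoform Atp6v0d1 (chr8:105524465-105566047, minus strand) was at 234 and 235 CPM, a ratio of 0.997 (0.863 to 1.15). Atp6v0b and Atp6v0e, small V0 subunits, were higher by ratios of 1.30 (1.18 to 1.44) and 1.44 (1.27 to 1.63), under the 1.5-fold bar. Atp6v0a1 and Atp6v0a2, isoforms of the large a subunit, were the members whose intervals lay below 1, at ratios of 0.80 (0.682 to 0.939) and 0.629 (0.424 to 0.928).

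The V1 genes moved as a group by smaller steps. All 8 had an interval above 1 and 3 were called higher, with a median log2 ratio of 0.55. Of all 9874 genes assessed, 1257 had an interval above 1. Atp6v1b2, the B subunit that shapes the catalytic ring (chr8:69088646-69113711, plus strand), was at 231.5 CPM in implanted and 127.2 CPM in non-implanted cells, a ratio of 1.82 (1.53 to 2.18). Atp6v1e1, of the peripheral stalk (chr6:120794305-120822793, minus strand), was at 312.9 and 184.9 CPM (ratio 1.69, 1.46 to 1.96). Atp6v1c1, the C subunit that links V1 to V0 (chr15:38661933-38692446, plus strand), was at 156.7 and 93.9 CPM (ratio 1.67, 1.36 to 2.06). At a clustering resolution of 0.5, where osteoclast-like cells were grouped with the macrophage-like ones, the log2 ratio of Atp6v1b2 was -0.10. The other V1 genes, Atp6v1a, Atp6v1d, Atp6v1f, Atp6v1g1 and Atp6v1h, had ratios from 1.23 to 1.49. Thinning bears on Atp6v1e1: its share of cells with a UMI at 1000 UMIs was 21.2% and 19.0%, where neutrophil-like cells had 29.5% and 30.0%. The accessory genes Atp6ap1 and Atp6ap2, the second also known as the prorenin receptor, had ratios of 1.10 (0.919 to 1.31) and 1.05 (0.915 to 1.2), so no difference was detectable at this depth.

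Of the 6 membrane protein genes, 3 were called higher. Cd68, the macrosialin of phagocyte lysosomes (chr11:69664213-69666153, minus strand), was at 657.7 CPM in the implanted and 335.1 CPM in the non-implanted class, a ratio of 1.96 (1.76 to 2.19). Its share of cells with a UMI was 67.6% and 66.7% before and 35.8% and 25.4% after thinning to 1000 UMIs, with 5.26% and 4.32% in thinned neutrophil-like cells. Lamp1 (chr8:13159161-13175338, plus strand) was at 912.5 and 630.6 CPM, a ratio of 1.45 (1.33 to 1.57), and fell short of the call. Npc1, which exports cholesterol from the lysosome, was at 94.9 and 59.1 CPM (ratio 1.61, 1.23 to 2.11). Mcoln1 was called higher on 15.7 and 8.34 CPM, but its ratio of 1.88 had an interval from 0.933 to 4.06, so the difference was not detectable at this depth. Lamp2 and Scarb2, a transporter of the enzyme that degrades glucosylceramide, had ratios of 1.29 and 1.12.

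**Figure D1:**
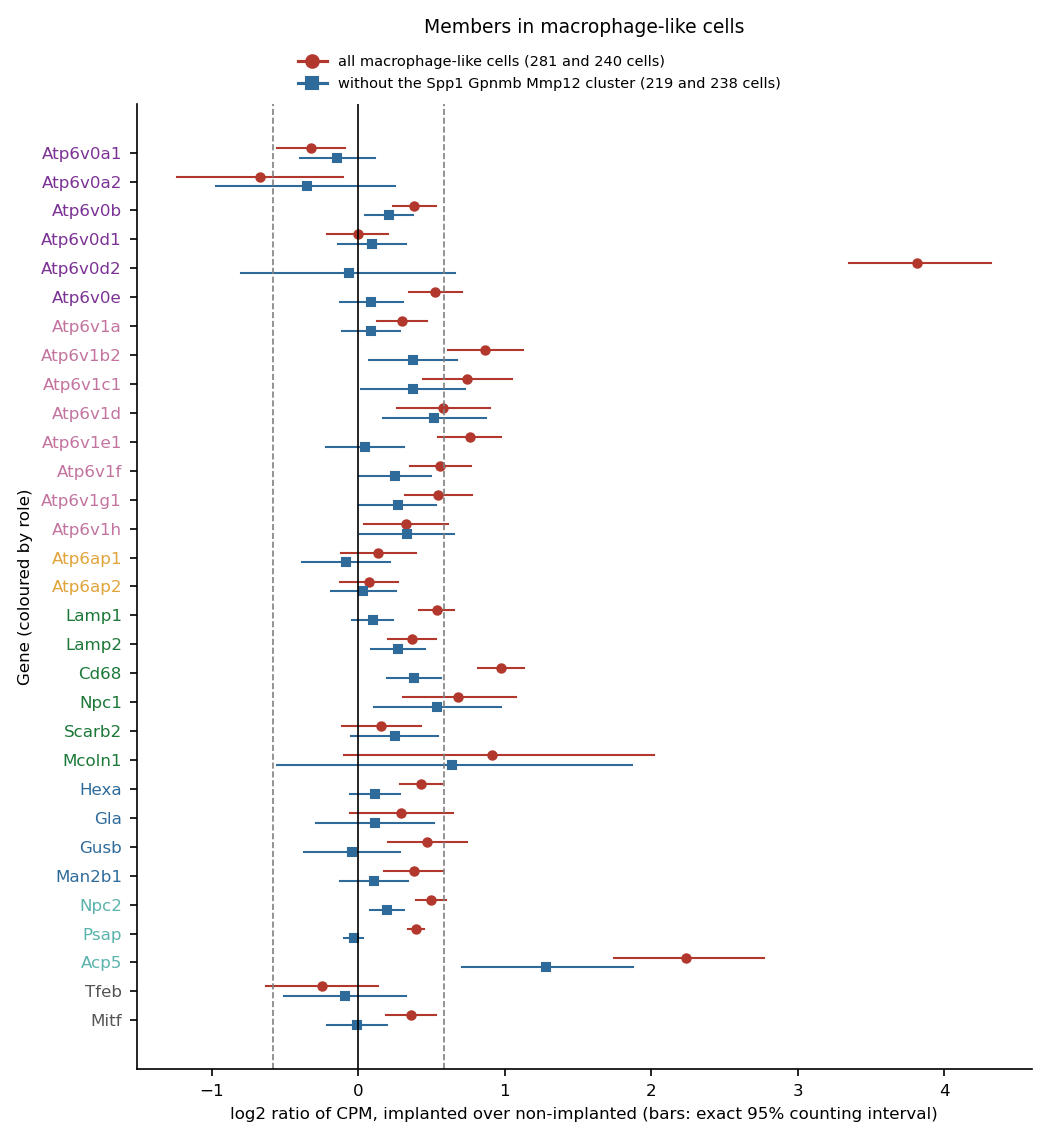
Log2 ratio of CPM, implanted over non-implanted, for each detected member (rows, coloured by role) in all macrophage-like cells (circles) and without the Spp1 Gpnmb Mmp12 cluster (squares), with exact 95% counting intervals as bars and dashed lines at 1.5-fold. Atp6v0d2 lies far right among all macrophage-like cells, at a ratio of 14.1, and next to 0 without that cluster.

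Among luminal proteins, Acp5, the tartrate-resistant acid phosphatase that marks osteoclasts (chr9:22126727-22135711, minus strand), was at 128 CPM in the implanted and 27.1 CPM in the non-implanted class, a ratio of 4.72 (3.35 to 6.80). UMIs of Acp5 were in 22.8% and 11.7% of these cells, and in 1.46% and 0.985% of neutrophil-like cells. Psap, the precursor of the saposins that help degrade sphingolipids, was at 3890 and 2959 CPM (ratio 1.31, 1.27 to 1.37). Npc2, the soluble partner of Npc1, had a ratio of 1.41 (1.31 to 1.51), and neither Psap nor Npc2 was called. None of the 4 glycosidase genes was called. Hexa, Gusb and Man2b1 had ratios of 1.34, 1.38 and 1.30 with intervals above 1, while that of Gla, 1.22, had an interval from 0.963 to 1.56. Of the transcription factors, Mitf (chr6:97807052-98021349, plus strand) was at 408.3 and 318.4 CPM (ratio 1.28, 1.14 to 1.44), and Tfeb (chr17:47737030-47792419, plus strand) at 66.7 and 79.3 CPM (ratio 0.841, 0.647 to 1.10). In thinned cells Mitf went the other way, with UMIs in 22.6% of implanted and 27.8% of non-implanted macrophage-like cells.

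Much of the difference rested on the Spp1 Gpnmb Mmp12 cluster. Without it, 219 and 238 macrophage-like cells were left, 1 of 31 members was called higher and 0 lower, and 5.97% of 9283 genes were called higher and 6.24% lower. The median log2 ratio was then 0.11 over the members and 0.01 over all genes. The called member was Acp5, at 66.1 and 27.3 CPM, with 23.7% of its implanted UMIs in 1 cell. Atp6v0d2 was at 26.1 CPM and 27.3 CPM in these cells, so its groups no longer differed beyond counting error. The V1 genes kept a median log2 ratio of 0.29, and 6 of 8 intervals lay above 1, a count for which no share over all genes is given here. Cd68 was at 436.1 and 335.4 CPM.

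In the cluster high in MHC class II and C1q, which both libraries filled, 2 of 31 members were called higher and 0 lower (7.54% of 9000 genes higher, 6.64% lower). The median log2 ratio was 0.16 over the members and 0.02 over all genes. Npc1 was at 94.7 CPM in implanted and 61.1 CPM in non-implanted cells, a ratio of 1.55 (1.14 to 2.12). Acp5 was at 67.9 and 26.3 CPM, a ratio of 2.58 (1.68 to 4.03), with 27.3% of the implanted UMIs in 1 cell. Atp6v0d2 was at 23.7 and 29.4 CPM, a ratio of 0.806 (0.457 to 1.39). Lamp1 was at 652.3 and 605.1 CPM, and Cd68 at 449.6 and 316.1 CPM.

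Within the implanted library, the Spp1 Gpnmb Mmp12 cluster stood above the other macrophage-like cells in part of the pump, membrane and luminal genes. Of 31 members, 16 were called higher and 1 lower, where 13.6% of 8302 genes were higher and 22.5% lower. The median log2 ratio was 0.60 over the members and -0.11 over all genes. Called higher were 2 of 6 V0 genes, 5 of 8 V1 genes, 2 of 6 membrane protein genes, 3 of 4 glycosidase genes, all 3 other luminal protein genes and 1 of 2 transcription factor genes. The summed level of the 17 pump genes was 5596 CPM (5421 to 5774) in the cluster and 3232 CPM (3129 to 3337) in the other macrophage-like cells. Medians over single cells were 4735 and 3079 CPM, so the step was smaller there. For the 4 glycosidases the summed levels were 1527 and 929 CPM. Their medians over cells, 1081 CPM (quartiles 613 and 1681) and 918 CPM (354 and 1479), lay closer together.

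Atp6v0d2 was at 969.3 CPM in the cluster and 26.1 CPM in the other macrophage-like cells, a ratio of 37.1 (25.8 to 55.5). It had UMIs in 33 of the 62 cells, 16.8% of them in 1 cell. Acp5 was at 230.1 and 66.1 CPM (ratio 3.48, 2.63 to 4.63), Atp6v1e1 at 520.6 and 187.1 CPM (2.78, 2.34 to 3.31) and Cd68 at 1024 and 436 CPM (2.35, 2.09 to 2.64). Both the pump and the hydrolases of the organelle were thus represented among the higher genes. Gusb, the β-glucuronidase, was at 261.7 and 122.7 CPM (ratio 2.13, 1.70 to 2.68), Atp6v1b2 at 340.8 and 165.4 CPM (2.06, 1.70 to 2.51), Lamp1 at 1310 and 672 CPM (1.95, 1.77 to 2.15) and Psap at 5565 and 2876 CPM (1.94, 1.85 to 2.03). Atp6v0e, Atp6v1c1, Atp6v1f, Atp6v1g1, Hexa, Man2b1 and Npc2 were higher by ratios of 1.53 to 1.96. The transcription factors parted: Mitf was at 566.6 and 312.5 CPM (ratio 1.81, 1.57 to 2.10) and Tfeb at 53.2 and 74.9 CPM (0.711, 0.470 to 1.06). The member called lower was Atp6v0a2, at 15.8 and 33.9 CPM (ratio 0.466, 0.215 to 0.928).

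Osteoclast markers were present in that cluster at a low level: 8 of 11 were detected and they summed to 851 CPM, with Oscar, Ocstamp and Sfrp4 at 0 UMIs, against 12492 CPM in the osteoclast-like cells of the same library. The sum is not particular to osteoclasts. In the same library it was 457 CPM in the other macrophage-like, 279 CPM in monocyte-like and 289 CPM in B cell-like cells. It was 517 CPM in granulocyte precursor-like, 1835 CPM in neutrophil-like and 5946 CPM in erythroid-like cells. Ctsk, the cathepsin of osteoclasts, had UMIs in 22 of the 62 cells. In the 40 cells without a Ctsk UMI, Atp6v0d2 was still at 835.9 CPM (ratio of 32 to the other macrophage-like cells, 22.0 to 48.3), Acp5 at 179.7 CPM (2.72) and Cd68 at 750.3 CPM (1.72). The members' median log2 ratio in those cells was 0.57.

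Monocyte-like and granulocytic cells gave the same comparison between the libraries with little difference. In monocyte-like cells the members' median log2 ratio was 0.04, and 1 of 30 was called higher and 0 lower (3.32% of 9271 genes higher, 3.11% lower). That member, Acp5, was at 218.3 CPM in implanted and 11.7 CPM in non-implanted cells, but 1 cell held 93.3% of its implanted UMIs, and the same class had Ctsk UMIs of which 96.0% were in 1 cell. In neutrophil-like cells 0 of 31 members were called in either direction (1.61% of 8262 genes higher, 0.992% lower) and the median log2 ratio was 0.01. In granulocyte precursor-like cells 0 of 31 were called (0.950% of 11159 genes higher, 0.179% lower), at a median of 0.03 against 0.05 over all genes.

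**Figure D2:**
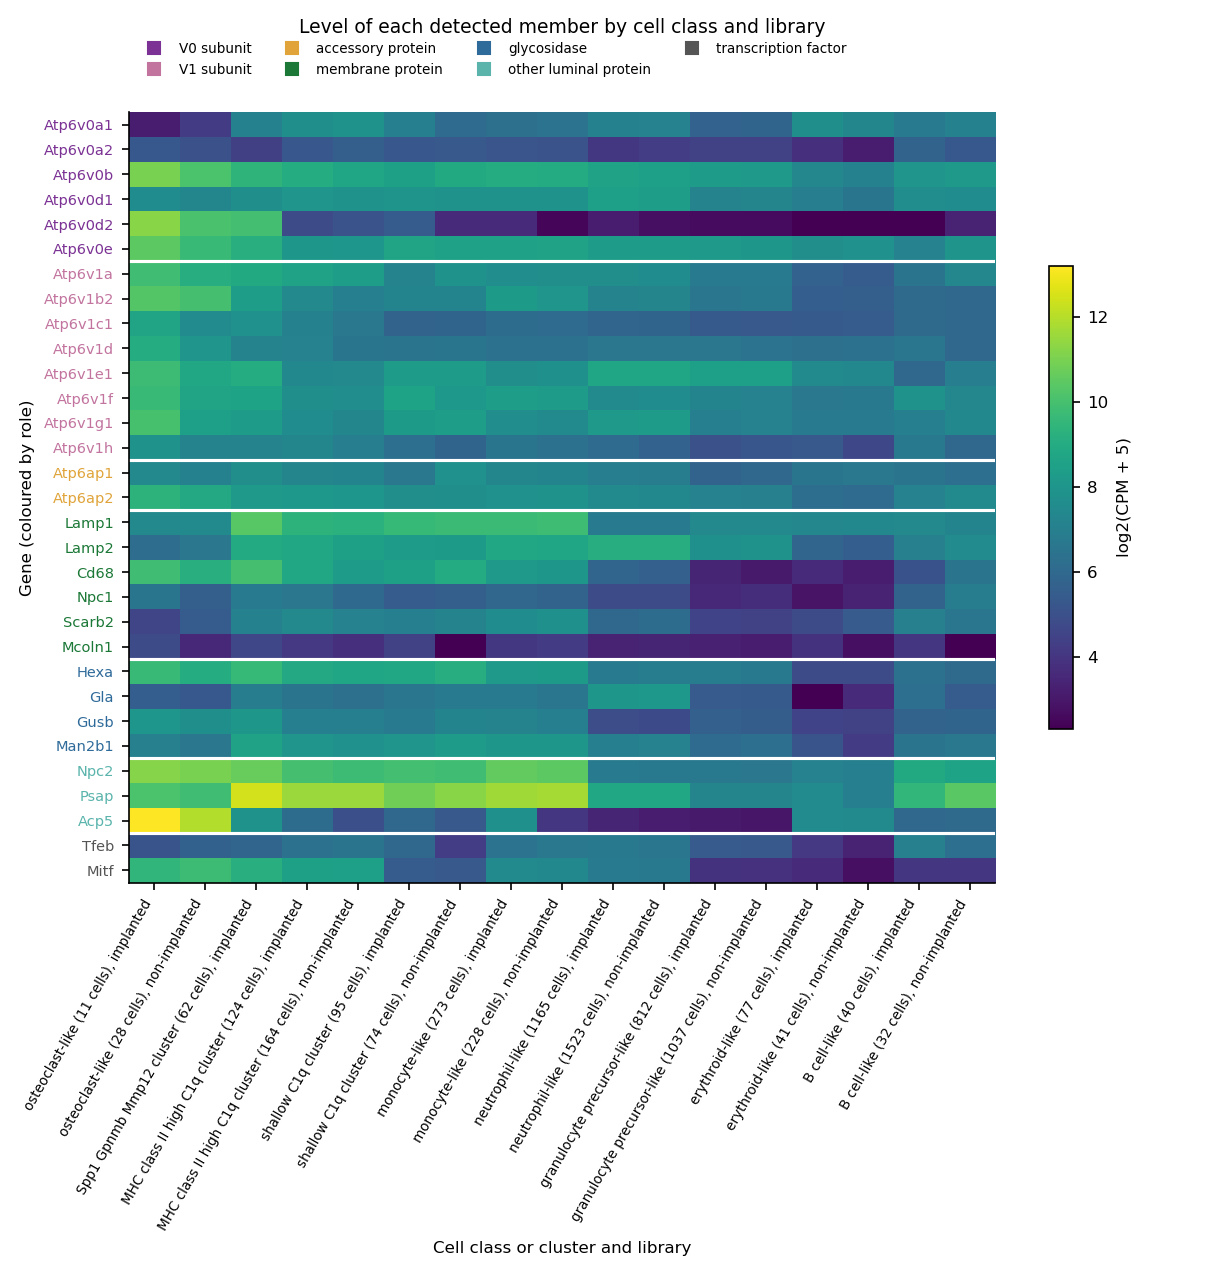
Level of each of the 31 detected members (rows, ordered and coloured by role) as log2(CPM + 5) in each cell class or cluster and library (columns, with the number of cells). Atp6v0d2 and Acp5 are bright in osteoclast-like cells and Atp6v0d2 also in the Spp1 Gpnmb Mmp12 cluster, while Lamp1, Lamp2 and Psap are darker in osteoclast-like than in macrophage-like columns.

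Osteoclast-like cells were compared with macrophage-like cells inside each library, which gives 2 values side by side. Most pump genes were higher in the osteoclast-like cells and many of the other lysosomal genes were lower. In the implanted library 15 of 31 members were called higher and 8 lower (33.6% of 8839 genes higher, 29.5% lower), and in the non-implanted library 16 of 30 higher and 9 lower (35.2% of 9035 genes higher, 23.0% lower). The median over all genes was itself shifted, to log2 ratios of 0.11 and 0.22, and the members' medians were 0.54 and 0.72. Over the pump genes assessed the medians were 1.37 and 0.98, with 12 and 11 of 16 called higher. Over the members outside the pump they were -0.10 and -0.55, with 3 of 15 and 5 of 14 called higher and 7 called lower in each library. The class held 11 and 28 cells with medians of 24503 and 21398 UMIs, the deepest here. Of these, 10 and 16 had a Ctsk UMI, so the non-implanted class was mixed. In the cells with a Ctsk UMI the 17 pump genes summed to 13640 and 8714 CPM, against 13005 and 7132 CPM in the whole class. The 6 MHC class II subset genes summed to 2993 and 1186 CPM in them, against 3466 and 3082 CPM in the whole class.

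Acp5 was at 9271 CPM (8906 to 9648) in implanted and 3979 CPM (3818 to 4145) in non-implanted osteoclast-like cells, 72.5-fold (63.4 to 83.2) and 147-fold (107 to 207) the CPM of macrophage-like cells. Atp6v0d2 was at 2451 and 1066 CPM, with ratios of 6.42 (5.76 to 7.16) and 39.3 (28.4 to 55.8). The denominators of those ratios, the macrophage-like cells, were at 381.7 and 27.1 CPM, and without the Spp1 Gpnmb Mmp12 cluster the implanted ratio was 93.9 (65.1 to 140) for Atp6v0d2 and 140 (112 to 179) for Acp5. Atp6v1b2 was at 1256 and 1027 CPM (ratios 5.43 and 8.07), Atp6v0b, a proteolipid of the V0 ring, at 2049 and 1095 CPM (3.60 and 2.50) and Atp6v0e at 1402 and 805 CPM (3.57 and 2.95). Every one of the V1 genes was called in the implanted library, and all but Atp6v1h in the non-implanted one. Atp6v1g1, a stalk subunit, was at 1057 and 353 CPM (ratios 4.27 and 2.08), Atp6v1d, of the central rotor, at 528.5 and 250.3 CPM (4.01 and 2.83), Atp6v1e1 at 862 and 459 CPM (2.75 and 2.48) and Atp6v1f at 800 and 409 CPM (2.70 and 2.03). Atp6v1c1, with ratios of 2.54 and 1.98, and Npc2, with 1.95 and 2.34, reached 2-fold in 1 library only. Atp6v1a, the catalytic A subunit, had ratios of 2.36 and 1.68.

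Most of the lower members lay outside the pump, and Atp6v0a1 of the V0 part was called lower in both libraries. It was at 3.83 and 13.9 CPM in osteoclast-like cells against 171.3 and 214.1 CPM in macrophage-like cells. Lamp1 was at 168.5 and 177.3 CPM, with ratios of 0.185 (0.134 to 0.249) and 0.281 (0.227 to 0.345), and Lamp2 at 68.9 and 95.6 CPM (0.152 and 0.271). Psap was at 1091 and 918 CPM (0.281 and 0.310). Scarb2, Man2b1, Gla and Tfeb were also lower in both libraries, with ratios from 0.128 to 0.592. Mitf stood apart from Tfeb, at 704.6 and 872.6 CPM and ratios of 1.73 (1.46 to 2.03) and 2.74 (2.41 to 3.12). Cd68 had ratios of 1.41 and 1.74, and Atp6v0d1 of 0.817 (0.597 to 1.10) and 0.658 (0.515 to 0.834).

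**Figure D3:**
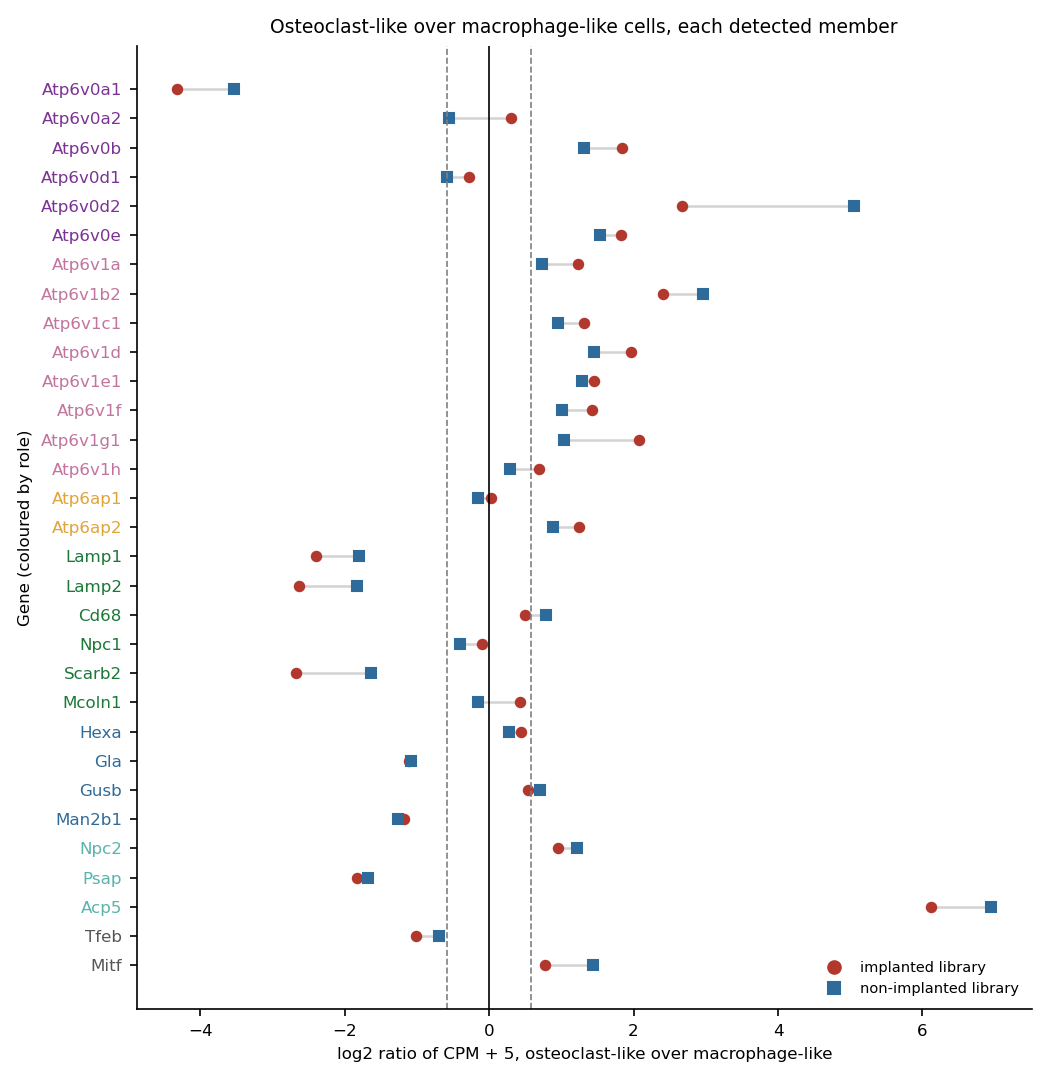
Log2 ratio of CPM + 5, osteoclast-like over macrophage-like cells, for each detected member (rows, coloured by role) in the implanted (circles) and the non-implanted library (squares), with dashed lines at 1.5-fold. The V1 genes lie right of 0 in both libraries, and Atp6v0a1, Lamp1, Lamp2, Scarb2 and Psap lie left of it.

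Between the libraries, osteoclast-like cells showed higher pump transcripts in the implanted one. Of 29 members assessed, 13 were called higher and 1 lower (12.8% of 6553 genes higher, 18.7% lower), with a median log2 ratio of 0.45 against -0.03 over all genes. The pump supplied 10 of the 13. Atp6v1g1 had the highest ratio among the V1 genes, 3.00 (2.49 to 3.61). Atp6v0d2 and Acp5 had ratios of 2.30 (2.06 to 2.57) and 2.33 (2.20 to 2.47), and Mitf one of 0.807 (0.678 to 0.958). Scarb2, the gene called lower, had an interval from 0.142 to 1.29. The makeup of the class also differed: Ctsk UMIs were in 10 of 11 implanted and 16 of 28 non-implanted cells, and the 11 neutrophil markers summed to 609 and 11351 CPM. Restricted to the 10 and 16 cells with a Ctsk UMI, 10 of 27 members were called higher and 0 lower (13.6% of 5506 genes higher, 15.5% lower), with a median of 0.41. Atp6v0d2 was then at 2580 and 1440 CPM (ratio 1.79, 1.60 to 2.01), Acp5 at 9880 and 5560 CPM (1.78, 1.68 to 1.88) and Atp6v1b2 at 1315 and 1308 CPM (1.01, 0.871 to 1.16). The neutrophil markers in those cells still summed to 600 and 10360 CPM, and their part in the difference was not tested. The intervals take UMIs as independent draws and are too narrow for so few cells.

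**Figure D4:**
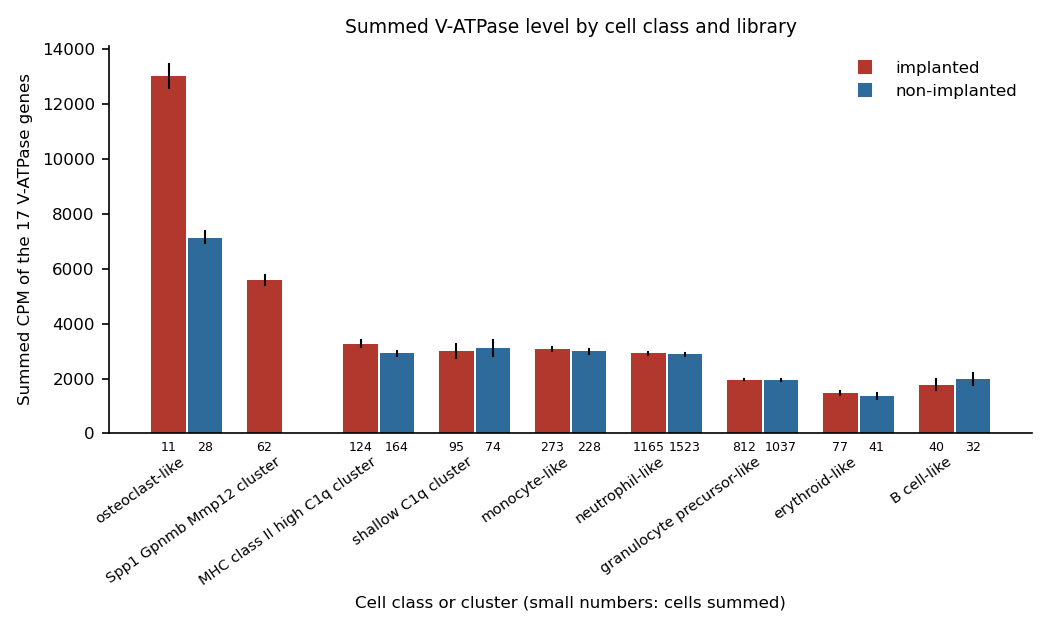
Summed CPM of the 17 pump genes (bars from 0, with exact 95% Poisson intervals) in each cell class or cluster, implanted and non-implanted, with the number of cells summed under each bar. Osteoclast-like cells reach 13005 and 7132 CPM and the Spp1 Gpnmb Mmp12 cluster 5596 CPM, and the 2 non-implanted cells of that cluster are not drawn.

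Across classes, the summed level of the 17 pump genes was 13005 CPM in implanted and 7132 CPM in non-implanted osteoclast-like cells, 4123 and 2935 CPM in macrophage-like cells, 3071 and 2989 CPM in monocyte-like cells and 2919 and 2887 CPM in neutrophil-like cells. It was 1961 and 1943 CPM in granulocyte precursor-like cells, 1778 and 1978 CPM in B cell-like cells and 1472 and 1368 CPM in erythroid-like cells. The levels of monocyte-like and non-implanted macrophage-like cells had overlapping intervals, as did those of non-implanted macrophage-like and of both neutrophil-like groups. The osteoclast-like cells with a Ctsk UMI were at 13640 and 8714 CPM.

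In macrophage-like over neutrophil-like cells, 21 of 31 members were called higher and 1 lower in the implanted library (56.9% of 9655 genes higher, 13.7% lower), and 18 higher and 4 lower in the non-implanted one (56.2% of 9573 genes higher, 13.9% lower). All genes assessed were shifted, with median log2 ratios of 0.80 and 0.77, and the members' medians were 0.92 and 0.73. Relative to that shift the members as a whole stood at 0.12 and -0.04, so the list did not keep its direction. The pump genes alone had medians of 0.60 and 0.34 and the other members 1.85 and 1.61, before that shift is taken off. Cd68 was at 53.1 and 45.4 CPM in implanted and non-implanted neutrophil-like cells, and Lamp1 at 108.3 and 107.9 CPM, far under the macrophage-like levels. Gla, the α-galactosidase, was higher in neutrophil-like cells, at 267.7 and 274.5 CPM against 97.1 and 79.3 CPM. Lamp2, at 548.8 and 546.8 CPM, and Atp6v1e1, at 421.8 and 433.7 CPM, in neutrophil-like cells, had macrophage-like levels of 454.9 and 353.2 CPM and of 312.9 and 184.9 CPM, and both were called in the non-implanted library only.

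Along the granulocytes, 16 and 14 of 31 members were called higher in neutrophil-like than in granulocyte precursor-like cells, in the implanted and the non-implanted library, and 2 lower in each. Of all genes, 20.7% of 10381 and 19.7% of 10765 were called higher and 38.3% and 33.1% lower, with medians of -0.31 and -0.24 against 0.60 and 0.51 over the members. Mitf was at 109.3 and 100.9 CPM in neutrophil-like and 9.87 and 9.57 CPM in precursor-like cells. Gla was at 38.2 and 36.8 CPM and Lamp2 at 217.4 and 231.8 CPM in the precursors, lower than in the neutrophil-like cells. The members that were lower in neutrophil-like cells were Lamp1, at 170.5 and 168.5 CPM in the precursors, and Gusb, at 45.0 and 41.3 CPM against 24.4 and 22.3 CPM.

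Isoforms of single subunits differed between classes. Of the UMIs of both d subunit genes, Atp6v0d2 took 92.8% (90.6 to 94.6) and 87.3% (84.6 to 89.7) in implanted and non-implanted osteoclast-like cells, 82.5% (79.7 to 85.0) in the Spp1 Gpnmb Mmp12 cluster, 8.55% (5.50 to 12.6) and 11% (7.91 to 14.8) in the cluster high in MHC class II and 1.22% and 0.541% in neutrophil-like cells. For the a subunit, Tcirg1, the a3 isoform of osteoclasts and secretory lysosomes, was taken from the wider list. Its share of the UMIs of Tcirg1, Atp6v0a1 and Atp6v0a2 was 93.2% and 91.4% in osteoclast-like cells and 58.8% in the Spp1 Gpnmb Mmp12 cluster. The share was 46.0% and 44.4% in monocyte-like, 43.9% and 43.1% in granulocyte precursor-like and 11.7% and 10.7% in neutrophil-like cells. Atp6v0a1 took 80.8% and 80.6% of these UMIs in neutrophil-like and 93.8% and 97.6% in erythroid-like cells. It also took most of them, at lower shares, in the cluster high in MHC class II (57.5% and 61.6%), in B cell-like cells (59.4% and 59.0%) and among the macrophage-like cells of the non-implanted library (61.1%). In all macrophage-like cells the Tcirg1 share was 42.8% (38.9 to 46.7) in the implanted and 26.6% (22.8 to 30.7) in the non-implanted library, and without the Spp1 Gpnmb Mmp12 cluster 32.6% (27.9 to 37.5) and 26.6%. Capture can differ between genes, so these shares compare classes and not isoforms.

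**Figure D5:**
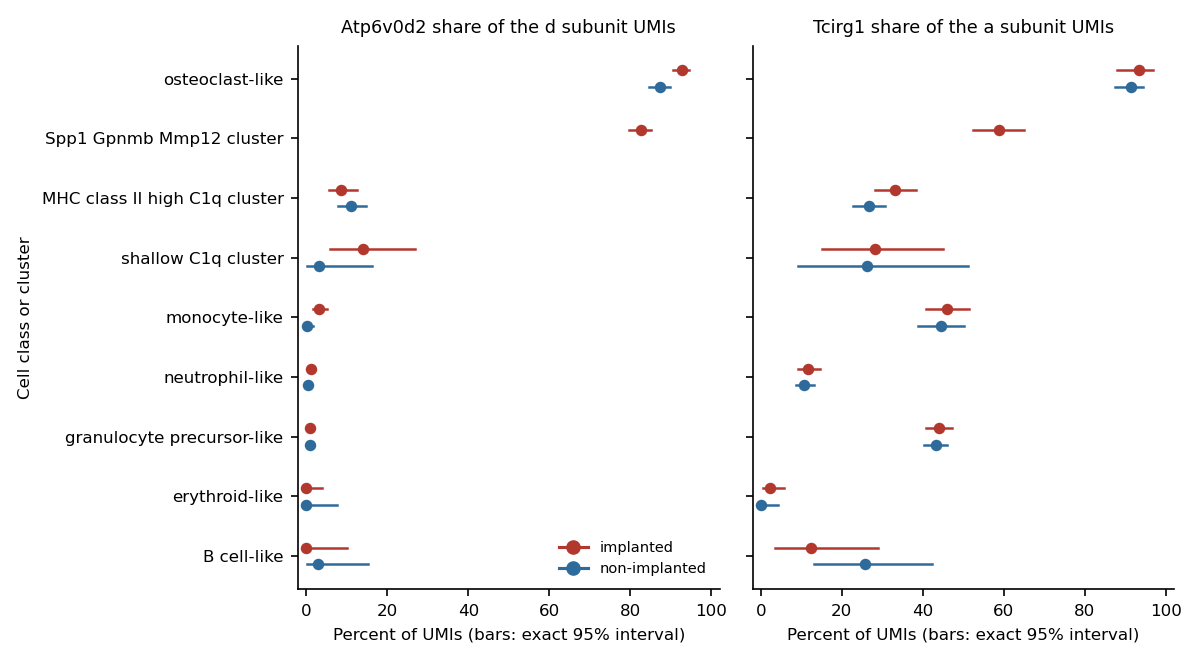
Percent of the d subunit UMIs that were Atp6v0d2 (left) and of the a subunit UMIs that were Tcirg1 (right) by cell class or cluster, with exact 95% binomial intervals, implanted and non-implanted. Osteoclast-like cells and the Spp1 Gpnmb Mmp12 cluster lie far right on the left panel, at 87.3% to 92.8% and at 82.5%.

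Acp5 was not restricted to osteoclast-like cells. Erythroid-like cells had it at 183.7 CPM in the implanted and 173.6 CPM in the non-implanted library, with UMIs in 36 of 77 and 19 of 41 cells, while Ctsk UMIs were in 4 of 77 and 0 of 41 of them. The 2 libraries did not differ beyond counting error there (intervals 155 to 216 and 140 to 213 CPM). The upper limit that a count of 0 allows for Atp6v0d2 in erythroid-like cells was 4.68% and 8.6% of cells, by the exact interval, which bounds cells with a captured UMI at this depth and not cells that express the gene.

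The 10 genes with levels most like Atp6v0d2 over 20 values (10 classes in each library, log2(CPM + 5), 12674 genes considered) were Dcstamp (Pearson r 0.959), St18 (0.955), Fblim1 (0.947), Tm4sf19 (0.933), Aldoc (0.931), Atp6v1c1 (0.928), Tnfrsf12a (0.928), Akr1b8 (0.928), Slc38a6 (0.928) and Gm44250 (0.927). Dcstamp encodes a protein needed for osteoclast fusion, and Atp6v1c1 is the member of the pump in that list. Dcstamp was also one of the osteoclast markers used to name the osteoclast-like class, so its rank is no independent result. The values share libraries and depth and rest on few osteoclast-like cells, so the correlations are a description.

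A wider list of 116 other lysosomal genes was read in the macrophage-like comparison between the libraries, against the same background of 8.35% called higher and 8.45% lower. Of 103 assessed, 21 were called higher and 5 lower, with a median log2 ratio of 0.20. The class includes the Spp1 Gpnmb Mmp12 cluster, and ratios of this list without that cluster are not given here. Proteases gave 8 of 16 higher and 1 lower, other membrane proteins 5 of 24 and 1, other hydrolases 3 of 29 and 2, other pump subunits and assembly factors 2 of 9 and 1, the sorting route 2 of 9 and 0, and the MiT/TFE factors with mTORC1 nutrient sensing 1 of 16 and 0. Ctsk was at 84.0 CPM in implanted and 2.09 CPM in non-implanted cells (ratio 40.3, 13.5 to 198), on 3 non-implanted UMIs, Gpnmb, which helped mark a cluster, at 1331 and 43.8 CPM (30.4) and Ctsl at 1299 and 227 CPM (5.73). Ctsd was at 20.1 and 4.17 CPM (4.81, 2.01 to 13.9) on 37 and 6 UMIs, few for a widely expressed gene, so its level is uncertain. Igf2r, a mannose 6-phosphate receptor, was at 55.9 and 16.7 CPM (3.35) and Dmxl2, of the pump's assembly factor, at 114.9 and 44.5 CPM (2.58). Those called lower were Arsb, Mfsd8, Rogdi, Plbd1 and Ctsc, with ratios of 0.447 to 0.631. Tcirg1, the osteoclast isoform, was at 148.6 and 93.2 CPM, a ratio of 1.59.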

How the data were processed

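Cells selected for CD11b from implanted and non-implanted cochleae were analysed, 1 library each. The authors deposited whole-number UMI counts per gene and barcode with no normalization; per the file headers, Cell Ranger 3.0.1 wrote them. Cell Ranger, Seurat and mm10 (GRCm38) are named in the submitters' processing notes. For the aligner and the annotation release, the sources used here give no name. Of 48816 feature rows, 48709 were genes and the rest was left out. The strand setting of the counting was not known here, so whether reads of overlapping genes were told apart is uncertain. Reads shared with near-identical copies (Atp6v0c has pseudogenes) may be lost.

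Barcodes with under 200 genes or over 10% mitochondrial UMIs were removed (82 of 3231 implanted, 59 of 3572 non-implanted). Scrublet scores (scanpy 1.11.5) were used to remove 84 and 102 barcodes as doublets, 0.8% per 1000 barcodes. Counts were clustered on 2000 variable genes without the members or the wider list, 30 components, 15 neighbours and Leiden resolution 1 (leidenalg 0.10.2). Clusters were named from 18 marker lists, "-like" since names rest on transcripts and may differ from the study's; the naming score was settled after the clusters were seen. A name needed at least 3 detected markers.

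UMIs were summed per class and library with Python 3.11.15, numpy 2.4.6, scipy 1.17.1 and pandas 2.3.3. CPM carries exact Poisson, CPM ratios exact conditional and shares Clopper-Pearson 95% intervals. The ratio step was checked on simulated counts. Members, lists and the rule for naming genes were chosen with earlier results of these data known. Named in full were members at least 1.5-fold different in macrophage-like cells with an interval that leaves out 1, those at least 2-fold higher in osteoclast-like cells in both libraries, and Tfeb, Mitf, Atp6v0d1, Atp6v0d2, Acp5, Cd68 and Lamp1, and of the wider list the 6 highest and up to 6 lowest. Gene positions are those of GENCODE M21 (GRCm38), matched by Ensembl identifier. Alternatives were other pseudocounts, minimum counts, fold thresholds, cell weights, depths, doublet and cell filters, clusterings and centring.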

Additional observations from a re-analysis of the deposited data

How the results depend on the processing

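No paired analysis was possible because each group has 1 library. The settings for osteoclast-like cells between the libraries, for the Spp1 Gpnmb Mmp12 cluster under other clusterings and those that leave out cells with a Ctsk UMI were chosen after seeing the data. In macrophage-like cells between the libraries, the median log2 ratio of the members (0.42) was 0.21 with equal weight for every cell and 0.11 without the Spp1 Gpnmb Mmp12 cluster; members called higher (8) numbered 5 with equal weight, 14 at clustering resolution 2, 1 without that cluster and 2 at a 2-fold threshold, and those called lower (0) numbered 1 with a pseudocount of 1 CPM, in cells thinned to 1000 UMIs and with 2 times the doublets removed. At resolution 0.5, where all 11 and 28 osteoclast-like cells fell under the macrophage-like name, the log2 ratio of Atp6v1b2 was -0.10, that of Atp6v0d2 0.97 and that of Acp5 0.13. Without the Spp1 Gpnmb Mmp12 cluster that of Atp6v0d2 was -0.052; its value of 3.59 was 1.90 in thinned cells and 2.37 with equal weight. Monocyte-like cells had 2 members called higher with no minimum count and 0 without the top cell of each gene, with 2 times the doublets removed, with at least 500 genes and at most 5% mitochondrial UMIs or with the members kept in the clustering, and 2 lower when thinned. Neutrophil-like cells had 1 higher with a pseudocount of 1 CPM, and precursor-like cells 1 lower when thinned. For the Spp1 Gpnmb Mmp12 cluster the median was 0.35 with equal weight and 0.31 at resolution 0.5; members called higher (16) numbered 7 at resolution 0.5 and 6 at 2-fold, and those called lower (1) numbered 0 at a minimum of 100 UMIs and at 2-fold, 2 with equal weight, at resolution 0.5 and 2 and without cells holding a Ctsk UMI, and 3 when thinned, without the top cell and under the stricter cell filter. For osteoclast-like over macrophage-like cells the non-implanted median (0.72) was 0.44 with equal weight. For osteoclast-like cells between the libraries, members called higher (13) numbered 8 when thinned and 5 at 2-fold, and those called lower (1) numbered 2 with a pseudocount of 1 CPM, no minimum, equal weight or 2 times the doublets removed, 0 at a minimum of 100 UMIs, when thinned, with a Ctsk UMI required or at 2-fold, and 4 without the top cell of each gene. For macrophage-like over neutrophil-like cells, centring on the median of all genes gave medians of 0.12 (implanted) and -0.044 (non-implanted), 11 and 9 members higher and 6 and 10 lower; the implanted count of lower members was 2 with a pseudocount of 1 CPM, when thinned, with 2 times the doublets removed or with the members kept in the clustering, and 3 with equal weight, without the top cell or at resolution 0.5, and the non-implanted one was 2 at 2-fold. Comparisons of osteoclast-like cells gave no value at resolution 0.5 or under the stricter cell filter, where no cluster took that name. Members under 20 UMIs in both arms together were not assessed, and the osteoclast-like class rests on 11 implanted cells. Where a setting changed a value, the cause was not tested. Shares of all genes called are given above for the main settings. They are also given for macrophage-like cells without the Spp1 Gpnmb Mmp12 cluster and for osteoclast-like cells with a Ctsk UMI. For the other settings no such share is given, so their member counts cannot be read against all genes.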

Other observations

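The wider lysosomal list, whose examples below were chosen after their values were seen, was also read in osteoclast-like over macrophage-like cells of each library. The implanted macrophage-like cells there include the Spp1 Gpnmb Mmp12 cluster, which the non-implanted ones nearly lack. Ctsk, the collagen-degrading cathepsin and one of the osteoclast markers that named the class, was at 8214 CPM in implanted and 3492 CPM in non-implanted osteoclast-like cells. Of the 16 proteases of the list, which include Ctsk, 3 were called higher and 8 lower of 16 assessed in the implanted library and 3 higher and 6 lower of 15 in the non-implanted one, where 29.5% and 23.0% of all genes were called lower. Ctss was at 340.8 and 486.7 CPM against 2858 and 1770 CPM in macrophage-like cells, with ratios of 0.119 (0.0956 to 0.147) and 0.275 (0.242 to 0.311). Ctsb had ratios of 0.14 and 0.307, and Ctsc, which activates serine proteases of granules, 0.0901 and 0.207. The receptors that carry new hydrolases to the lysosome were higher in osteoclast-like cells: M6pr had ratios of 2.05 (1.62 to 2.57) and 2.29 (1.87 to 2.79), and Igf2r 1.85 and 4.69. Arsb, a sulfatase, was at 390.6 and 358.1 CPM against 65.6 and 146.7 CPM (ratios 5.95 and 2.44). Clcn7, the chloride transporter that balances the pump's charge in osteoclasts, was at 99.6 and 38.2 CPM against 46.1 and 36.2 CPM, so only the implanted library showed it above macrophage-like cells (2.16, 1.34 to 3.39, and 1.06, 0.612 to 1.77), and the difference between the libraries was not tested.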
